A study of Mus musculus with 6 samples.

Results

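The nuclear pore genes and the genes for the importins and exportins that carry cargo through it were followed in mouse naive CD4+ T cells given an activating stimulus with or without the chemokine CCL19. Members were the rows of the gene table whose symbol begins with Nup, Kpna, Kpnb or Ipo and a digit, or with Xpo and a digit or the letter t. This rule found 41 of the 24470 genes listed, 21 of them pore genes and 20 receptor genes. The cells came from male C57BL/6J mice, whose spleen and skin-draining LNs (lymph nodes) were the source of naive CD4+ T cells purified on magnetic beads (MACS). They were stimulated for 6 h by immobilised antibodies against CD3 and CD28, at a coating strength of 1 µg/mL. The CCL19 group (3 libraries) had recombinant mouse CCL19 in its 200 µL of medium. The group labelled NoCKN (3 libraries) had the same antibodies and no CCL19, so no unstimulated cells stand in the comparison. The age of the mice and the dose of CCL19 are not stated in the sources at hand. Whether the replicates of a group were different mice or different wells is not stated, and the p-values therefore speak only of the spread among these libraries, which may be technical.

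The nuclear pore is the channel through the nuclear envelope. Its scaffold is built from a Y-shaped complex that forms the outer rings and from an inner ring, and nucleoporins with phenylalanine-glycine repeats fill the channel. Importins bind cargo in the cytoplasm and release it in the nucleus when they meet the GTPase Ran in its GTP form, while exportins bind cargo together with Ran-GTP and release it in the cytoplasm. Resting T cells are small, and activation brings nuclear import of factors such as NFAT and NF-kB and, later, growth of the nucleus.

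Nearly all members stood slightly higher with CCL19, and none passed edgeR's quasi-likelihood test, the test used across all genes. Of 39 members that passed the filter on low counts, 37 had a log2 fold change above 0 (94.9%, against 49.8% of the 11666 genes tested), with a median of 0.21 for the members and 0.00 for all genes tested. The largest was 1.33-fold. edgeR called 0 members and 0% of all genes at an adjusted p under 0.05, and so did limma-voom. The lowest edgeR adjusted p over all genes tested was 0.0505, so the threshold was missed narrowly. Ipo7 and Nup133 had this value, but so did genes outside the members, such as Il2ra. It therefore does not rank Ipo7 and Nup133 first among all genes. At an unadjusted p under 0.05, edgeR had 21 members higher and 0 lower, against 14.5% of all genes higher and 13% lower, and limma-voom likewise had 21 higher, against 14.7% of all genes. DESeq2 called 8 members higher and 0 lower, which is 20.5% of those tested, against 5.55% of all genes higher and 5.03% lower. The 2 groups of libraries did not overlap in 17 members that were higher and in 1 that was lower, against 15.3% and 14.5% of all genes. In bulk RNA, a change in the RNA of each cell and a change in the make-up of the cells cannot be told apart.

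**Figure D1:**
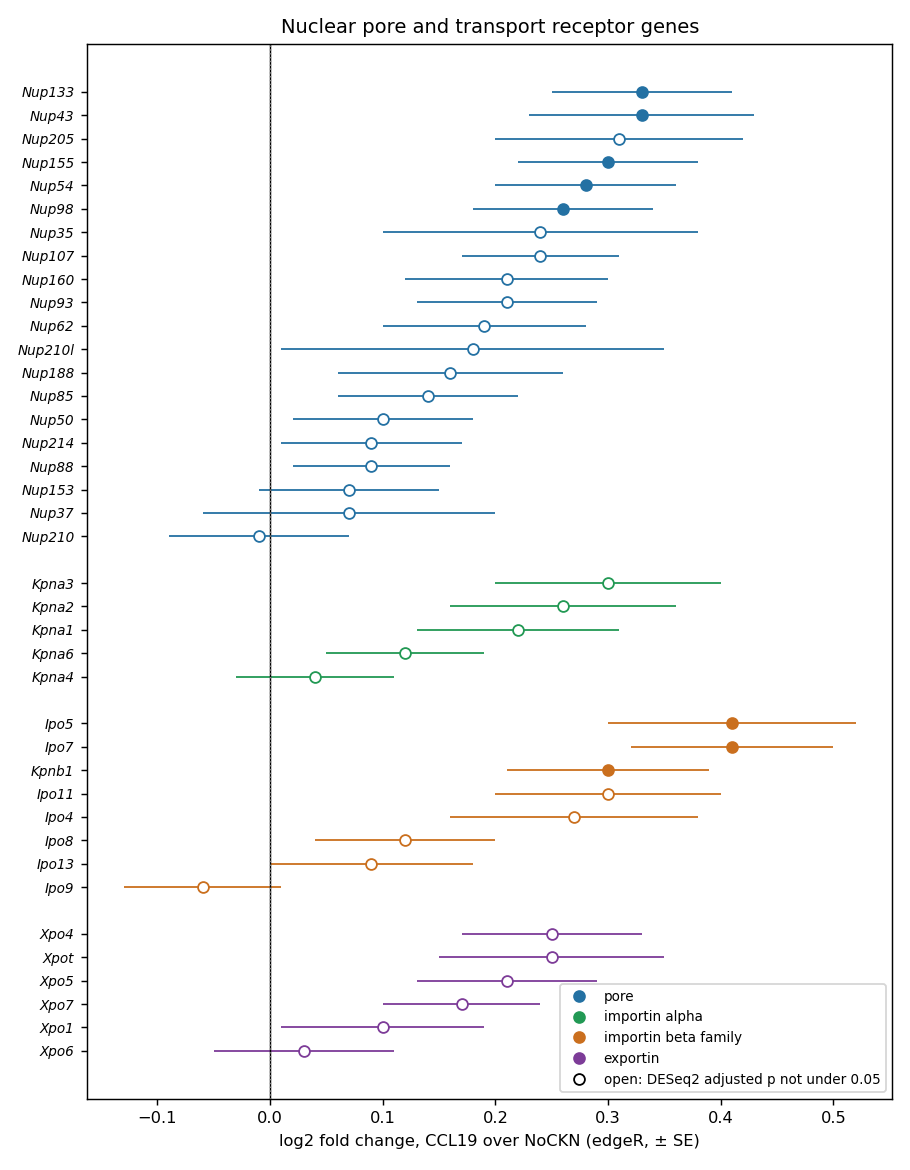
Log2 fold change of each tested member, CCL19 over NoCKN, from edgeR with its SE, coloured by class; filled points mark an adjusted p under 0.05 in DESeq2, and the vertical line stands at 0, the median of all genes tested. Points lie between -0.06 (Ipo9) and 0.41 (Ipo5 and Ipo7), and 37 of 39 are to the right of 0.

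The calls depended on single libraries. DESeq2 called 0 members higher without CCL19 replicate 1 (0.0841% of all genes tested were called higher) and 1 (Ipo7) without CCL19 replicate 2 (0.492%). Without NoCKN replicate 1 it called 0 (0.331%), and without CCL19 replicate 3 it called 16 (7.97%). Without NoCKN replicate 2 it called 7 (with 594 of all genes higher), and without NoCKN replicate 3 it called 9 (with 718). Of its 8 calls with all libraries, 7 were among the 16, 6 among the 7 and 6 among the 9. edgeR called 11 members higher without CCL19 replicate 3 (6.5% of all genes) and 3 without NoCKN replicate 3 (1.98%). The number of members called thus moved together with the number of all genes called. The median over the 19 tested receptor genes was 0.14 without CCL19 replicate 1, against 0.22 with all libraries. Levels are given as CPM, a gene's counts scaled to the same library total after TMM normalisation. Averaged over all 39 members, log2 CPM relative to the mean of the 6 libraries was 0.19, 0.08 and 0.02 in CCL19 replicates 1 to 3 and -0.18, -0.07 and -0.04 in NoCKN replicates 1 to 3. The libraries thus did not overlap in this mean, with CCL19 replicate 1 and NoCKN replicate 1 farthest apart and both replicates 3 closest across the groups. By a chi-square over genes, CCL19 replicate 3 and NoCKN replicate 3 were also the closest pair of all libraries (5.19 per degree of freedom).

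The members called by DESeq2 were 3 import receptors and 5 pore genes. Nup107 and Ipo11 narrowly missed its threshold (DESeq2 adjusted p = 0.0521 and 0.0511). Their edgeR adjusted p (0.0722 and 0.0753) lay below that of Nup98 (0.0781), which DESeq2 called. Gene coordinates are those of the deposited table. Ipo7 (NCBI Gene 233726, mm10 chr7:110018425-110055114, plus strand), an importin for ribosomal proteins and histone H1, had 205, 180.2 and 176 CPM in the CCL19 libraries, against 124, 139.5 and 158 CPM in the NoCKN libraries. Every CCL19 library lay above every NoCKN library, with log2 fold change 0.41 ± 0.09 (SE), edgeR adjusted p = 0.0505, DESeq2 adjusted p = 0.00405, and an adjusted p of 0.00104 to 0.226 over the alternatives tried. Ipo5 (NCBI Gene 70572, mm10 chr14:120911194-120948046, plus strand), which brings ribosomal proteins and core histones into the nucleus, had 583, 501 and 439.8 CPM in the CCL19 libraries, against 322, 405 and 418 CPM in the NoCKN libraries. Its groups did not overlap either, but CCL19 replicate 3 and NoCKN replicate 3 lay close together (log2 fold change 0.41 ± 0.11 (SE), edgeR adjusted p = 0.0592, DESeq2 adjusted p = 0.0104, 0.00243 to 0.235 over the alternatives). Kpnb1 (NCBI Gene 16211, mm10 chr11:97159710-97187892, minus strand) encodes importin beta 1, the carrier for cargoes bound by an importin alpha, and had 703, 637 and 624 CPM in the CCL19 libraries, against 484, 551 and 558 CPM in the NoCKN libraries. This was log2 fold change 0.30 ± 0.09 (SE), with no overlap between the groups (edgeR adjusted p = 0.061, DESeq2 adjusted p = 0.0126, 0.0126 to 0.269 over the alternatives).

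In the pore, Nup133 (NCBI Gene 234865, mm10 chr8:123897123-123949265, minus strand), a stalk protein of the Y complex, had 70.2, 64.1 and 62.2 CPM in the CCL19 libraries, against 49.3, 54.5 and 52.3 CPM in the NoCKN libraries. The groups stood well apart for this gene (log2 fold change 0.33 ± 0.08 (SE), edgeR adjusted p = 0.0505, DESeq2 adjusted p = 0.0116, 0.00961 to 0.226 over the alternatives). Nup43 (NCBI Gene 69912, mm10 chr10:7667504-7678886, plus strand), a small propeller protein of the same complex, had 28.3, 30.8 and 28.3 CPM in the CCL19 libraries, against 20.1, 25.9 and 23.7 CPM in the NoCKN libraries. NoCKN replicate 1 was the lowest of its libraries, and the groups did not overlap (log2 fold change 0.33 ± 0.10 (SE), edgeR adjusted p = 0.073, DESeq2 adjusted p = 0.0474, 0.0316 to 0.319 over the alternatives). Nup155 (NCBI Gene 170762, mm10 chr15:8109313-8159859, plus strand), which links the inner ring to the membrane, had 114, 99.99 and 97.8 CPM in the CCL19 libraries, against 77.3, 89.4 and 87.3 CPM in the NoCKN libraries. CCL19 replicate 1 was the highest and NoCKN replicate 1 the lowest (log2 fold change 0.30 ± 0.08 (SE), edgeR adjusted p = 0.0605, DESeq2 adjusted p = 0.0273, 0.0166 to 0.251 over the alternatives). Nup54 (NCBI Gene 269113, mm10 chr5:92415540-92435199, minus strand), a repeat protein of the central channel, had 66, 67.7 and 60.1 CPM in the CCL19 libraries, against 51.8, 53.1 and 54.2 CPM in the NoCKN libraries. Its NoCKN libraries lay within a narrow range below the CCL19 libraries (log2 fold change 0.28 ± 0.08 (SE), edgeR adjusted p = 0.055, DESeq2 adjusted p = 0.024, 0.024 to 0.226 over the alternatives). Nup98 (NCBI Gene 269966, mm10 chr7:102119400-102210166, minus strand) is translated as a precursor that is cut into the repeat protein Nup98 and the Y complex protein Nup96, so its reads serve both, and it had 276, 243 and 226 CPM in the CCL19 libraries, against 197, 211 and 213 CPM in the NoCKN libraries. The groups did not overlap (log2 fold change 0.26 ± 0.08 (SE), edgeR adjusted p = 0.0781, DESeq2 adjusted p = 0.0398, 0.0303 to 0.306 over the alternatives). In the authors' deposited table of changed genes, 7 of the 41 members are listed as higher with CCL19 and none as lower. Of all 24470 genes listed, many of them without a count, 2.57% are marked higher and 2.2% lower. The 7 are these 8 without Nup43. DESeq2 was also among the authors' tools and the libraries are the same, so this overlap is no independent support.

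**Figure D2:**
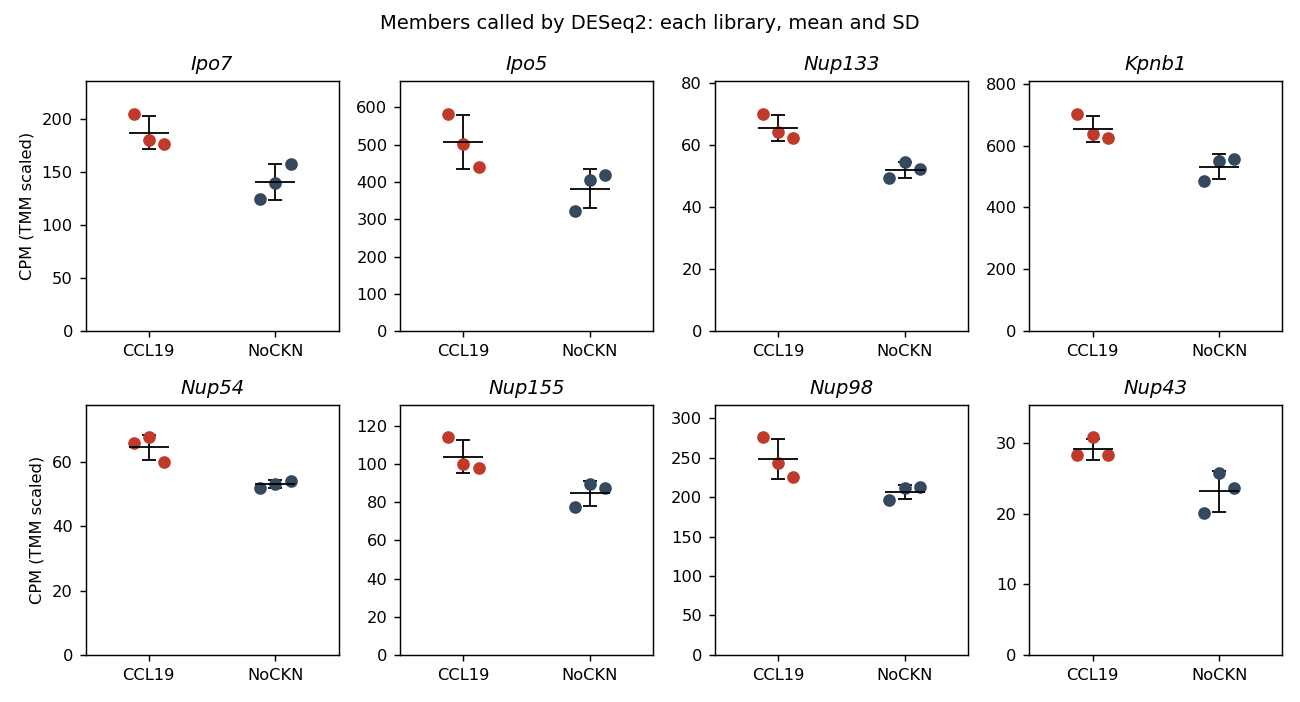
CPM (TMM-scaled) of the 8 members called by DESeq2, with a point for each of 3 CCL19 and 3 NoCKN libraries, and the mean and SD as bars. For each gene the lowest CCL19 library lies above the highest NoCKN library, for Ipo5 by 439.8 against 418 CPM.

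The stretches before the transcription start of 4 of these genes are shown as examples. They were picked because the genes were called and their promoters hold motifs searched, so they cannot show whether motifs and differences go together. RefSeq (GRCm38.p6, the assembly of mm10), whose starts can differ from the gene coordinates above, gave a start for 32 of the 41 members, 30 of them tested, and the 250 bases before it were searched on both strands for CACGTG (an E-box, read the same on both strands), CCGGAAGT (an ETS-type motif, ACTTCCGG on the other strand), the NRF1 palindrome and CCAAT. Capitals mark these letters, and no match overlapped another. Ipo7 (chr7:110018065-110018314 on the plus strand) and Nup54 (chr5:92435200-92435449 on the minus strand) hold CACGTG, Nup54 and Nup155 (chr15:8109063-8109312 on the plus strand) hold CCGGAAGT, and Kpnb1 (chr11:97187893-97188142 on the minus strand) holds CCAAT 3 times.
Ipo7: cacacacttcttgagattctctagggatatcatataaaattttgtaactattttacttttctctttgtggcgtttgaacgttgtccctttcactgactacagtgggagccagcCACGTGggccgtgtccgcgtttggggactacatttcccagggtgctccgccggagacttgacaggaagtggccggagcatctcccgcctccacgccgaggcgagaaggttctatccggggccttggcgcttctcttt
Kpnb1: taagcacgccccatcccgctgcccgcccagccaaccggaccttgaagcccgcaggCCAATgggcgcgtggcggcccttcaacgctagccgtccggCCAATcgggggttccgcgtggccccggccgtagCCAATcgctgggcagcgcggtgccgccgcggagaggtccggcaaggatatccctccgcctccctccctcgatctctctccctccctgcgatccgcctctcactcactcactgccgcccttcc
Nup54: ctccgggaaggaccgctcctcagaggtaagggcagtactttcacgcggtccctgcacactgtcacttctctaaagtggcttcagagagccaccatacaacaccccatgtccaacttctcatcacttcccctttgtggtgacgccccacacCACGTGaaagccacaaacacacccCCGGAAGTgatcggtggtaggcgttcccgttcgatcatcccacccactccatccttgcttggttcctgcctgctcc
Nup155: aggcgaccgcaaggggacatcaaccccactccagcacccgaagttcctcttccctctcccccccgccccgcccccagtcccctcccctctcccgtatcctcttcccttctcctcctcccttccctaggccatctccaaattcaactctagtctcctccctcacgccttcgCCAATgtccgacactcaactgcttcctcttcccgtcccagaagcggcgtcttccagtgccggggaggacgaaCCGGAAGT

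CACGTG was found for 5 of the 30 tested members with a start (16.7%), namely Ipo7, Nup54, Nup93, Nup188 and Xpot, and for 6.86% of all 27025 genes in the RefSeq table (6.02% of its 32851 promoters). In Ipo7 the motif ended 131 bases before the start, in Nup54 94 bases before it, and Nup188 held it at 60 and 18 bases. CCGGAAGT was found for 3 members (10%), Ipo4, Nup54 and Nup155, and for 3.23% of all genes (2.88% of promoters), and in Nup155 it lay directly before the start. The NRF1 palindrome was found for 4 members (13.3%), Nup50, Nup62, Nup107 and Xpo5, and for 0.877% of all genes (0.782% of promoters). CCAAT was found for 16 members (53.3%) and for 37.5% of all genes (33.8% of promoters). The table also holds genes without a protein product and genes silent in T cells, so these shares are a description only. Of the 8 members called by DESeq2, Nup133 held none of the 4 motifs in this window, and Nup43 had no entry. Ipo5, Kpnb1 and Nup98 held only CCAAT. Members with little change held motifs too, such as Kpna4 (log2 fold change 0.04) and Xpo6 (0.03) with CCAAT. Nup50 (0.10) held CCAAT and the NRF1 palindrome. Whether a motif goes with the difference was not tested.

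Within the pore, the median log2 fold change was 0.24 for the inner ring, 0.22 for the Y complex, 0.19 for the channel and cytoplasmic side, 0.09 for the basket and 0.08 for the membrane proteins. These differences were not tested, and with a GC and length offset (a correction in each library for how counts run with these properties) the medians were 0.23, 0.19, 0.23, 0.07 and 0.12 in the same order. DESeq2 called 1 of 5 inner ring genes, 2 of 6 Y complex genes and 2 of 5 channel and cytoplasmic genes. Of all genes tested, it called 5.55% higher. All 6 Y complex genes tested were above 0, with Nup107 at 76 ± 1.11 CPM in CCL19 and 64.5 ± 3.85 CPM in NoCKN libraries (SD, n = 3 each; log2 fold change 0.24), Nup160 at 0.21, Nup85 at 0.14 and Nup37 at 0.07 on the log2 scale. For Nup107 and Nup160 the groups did not overlap, while for Nup37 the NoCKN libraries spanned 8.85 to 11.5 CPM around most of the CCL19 values. All 5 inner ring genes were above 0. Besides Nup155 these were Nup205 (0.31), Nup93 (0.21) and Nup188 (0.16), large scaffold proteins, and Nup35 (0.24), which touches the membrane. Nup205 stood at 211 ± 29.8 CPM in CCL19 and 171 ± 21 CPM in NoCKN libraries, and its groups overlapped. Of the other channel and cytoplasmic proteins, Nup62, the partner of Nup54, had a log2 fold change of 0.19, and Nup214 (0.09) and Nup88 (0.09), which sit together on the cytoplasmic face where export complexes come apart, overlapped between the groups.

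No gene of the nuclear basket or the membrane was called by any tool with all libraries. Nup153, a basket protein and the pore gene with the highest level per summed exon length, had 535, 495 and 494 CPM in the CCL19 libraries, against 481, 471 and 496 CPM in the NoCKN libraries. CCL19 replicate 1 was the highest and the other libraries lay together, so the groups overlapped (log2 fold change 0.07 ± 0.08 (SE), edgeR adjusted p = 0.563, DESeq2 adjusted p = 0.531). Nup50, its partner in the basket, had a log2 fold change of 0.10. Nup210, the membrane glycoprotein of the pore, which mouse peripheral CD4+ T cells are known to need, was chosen for mention after its values were seen and had 664, 636 and 583 CPM in the CCL19 libraries, against 611, 654 and 637 CPM in the NoCKN libraries. Its log2 fold change was -0.01 ± 0.08 (SE; edgeR adjusted p = 0.928, DESeq2 adjusted p = 0.926), and it is the only pore gene below 0. With the GC and length offset it was 0.07. Its paralog Nup210l, known from testis, was near the bottom of the range at 5.46 ± 0.572 CPM in CCL19 and 4.86 ± 0.608 CPM in NoCKN libraries and overlapped (0.18). Nup62cl, a gene similar to the end of Nup62, did not pass the filter, with 2, 2 and 0 counts in the CCL19 libraries, against 1, 2 and 1 in the NoCKN libraries, all under the limit of 3 counts that a count of 0 allows.

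Among the importin alpha genes, the adaptors that recognise the classical nuclear localisation signal, all 5 tested were above 0 (median 0.22) and DESeq2 called none. Kpna6, with the highest level per summed exon length of the 5, had 136, 124 and 121 CPM in the CCL19 libraries, against 112, 122 and 119 CPM in the NoCKN libraries. The groups overlapped (log2 fold change 0.12 ± 0.07 (SE), edgeR adjusted p = 0.331, DESeq2 adjusted p = 0.374). Kpna3 stood at 84.6 ± 8.23 CPM in CCL19 and 68.6 ± 10.2 CPM in NoCKN libraries (0.30) and Kpna2 at 50.3 ± 4.84 CPM in CCL19 and 42 ± 4.27 CPM in NoCKN libraries (0.26), both without overlap, although the highest NoCKN library of Kpna3 (79.5 CPM) nearly reached the lowest CCL19 library (79.6 CPM). Kpna1 had a log2 fold change of 0.22 and Kpna4, the close relative of Kpna3, 0.04, which was -0.05 with the GC and length offset. Kpna7, the importin alpha of oocytes, had 0 counts in all 6 libraries, which allows up to 3 counts or between 0.109 and 0.180 CPM in a library, counting error only.

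The importin beta family held the largest differences and also the one receptor below 0. Besides Ipo5, Ipo7 and Kpnb1, Ipo11 stood at 40.6 ± 1.82 CPM in CCL19 and 33 ± 3.93 CPM in NoCKN libraries (0.30), with no overlap, and Ipo4, an importin for histones, at 356 ± 45.9 CPM in CCL19 and 295 ± 36.8 CPM in NoCKN libraries (0.27), with overlap. Ipo8 (0.12), which is closely related to Ipo7, and Ipo13 (0.09), which carries cargo both ways, overlapped between the groups. Ipo9, another carrier of histones, is given as an exception chosen after its values were seen and had 117, 118 and 113 CPM in the CCL19 libraries, against 121, 119.8 and 123 CPM in the NoCKN libraries. All CCL19 libraries lay below all NoCKN libraries, yet by little (log2 fold change -0.06 ± 0.07 (SE), edgeR adjusted p = 0.58, DESeq2 adjusted p = 0.625).

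All 6 exportins were above 0 (median 0.19), and DESeq2 called none. Xpot, the exporter of tRNA and the exportin with the highest level per summed exon length, had 209, 188 and 162 CPM in the CCL19 libraries, against 139, 162 and 169.9 CPM in the NoCKN libraries. Its groups overlapped, with CCL19 replicate 3 at nearly the same level as NoCKN replicate 2 and below NoCKN replicate 3 (log2 fold change 0.25 ± 0.10 (SE), edgeR adjusted p = 0.127, DESeq2 adjusted p = 0.1). The groups did not overlap for Xpo4 (0.25), which exports the translation factor eIF5A, Xpo5 (0.21), the exporter of microRNA precursors, and Xpo7 (0.17), a carrier with many cargoes. Xpo1, also called CRM1, exports proteins with leucine-rich signals and was added to the named genes after its values were seen. It had 138, 126 and 143 CPM in the CCL19 libraries, against 124, 110.0 and 144 CPM in the NoCKN libraries. NoCKN replicate 3 was the highest of all 6 libraries (log2 fold change 0.10 ± 0.09 (SE), edgeR adjusted p = 0.498, DESeq2 adjusted p = 0.526). Xpo6, the exporter of actin with profilin, had a log2 fold change of 0.03, which was -0.02 with the GC and length offset.

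Set against each other, pore and receptor genes had nearly the same typical change. The ratio of their summed transcripts was apart between the groups with all genes, but overlapped once 2 abundant pore genes were left out. The median log2 fold change was 0.20 over 20 tested pore genes and 0.22 over 19 tested receptor genes, so pore minus receptors was -0.02. Between replicates of a group, the pore minus receptor difference in mean log2 CPM had an SD of 0.02. That SD is of single libraries and of means, so it is not the error of the -0.02. The pore minus receptor median was 0.01 without CCL19 replicate 1 and -0.05 without CCL19 replicate 3. DESeq2 called 5 of 20 pore genes (25.0%) and 3 of 19 receptor genes (15.8%), against 5.55% of all genes called higher. The difference between the pore and receptor counts was not tested. Summed over the receptor genes, the libraries held 3908, 3527 and 3369 CPM with CCL19, against 2862, 3176 and 3215 CPM in NoCKN. Over the pore genes they held 3192, 2949 and 2771 CPM with CCL19, against 2574, 2788 and 2767 CPM in NoCKN, so CCL19 replicate 3 lay below NoCKN replicate 2. The ratio of receptor to pore CPM was 1.22, 1.20 and 1.22 in the CCL19 libraries, against 1.11, 1.14 and 1.16 in the NoCKN libraries, with no overlap. Nup210 and Nup153 hold 41.2% of the pore sum in NoCKN and contributed -2.41% and 9.71% of its difference. Without these 2 genes, a choice made after the data were seen, the ratio was 1.96, 1.94 and 1.99 in the CCL19 libraries, against 1.93, 1.91 and 1.97 in the NoCKN libraries, and the groups overlapped. No receptor gene was left out in the same way. A sum is led by its most abundant genes. Ipo5 made up 24.4% of the 517 CPM by which the receptor sum was higher, Kpnb1 24.0%, Ipo4 11.7% and Ipo7 8.99%. In the pore, Nup98 made up 15.8% and Nup205 15.4% of a difference of 261 CPM.

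**Figure D3:**
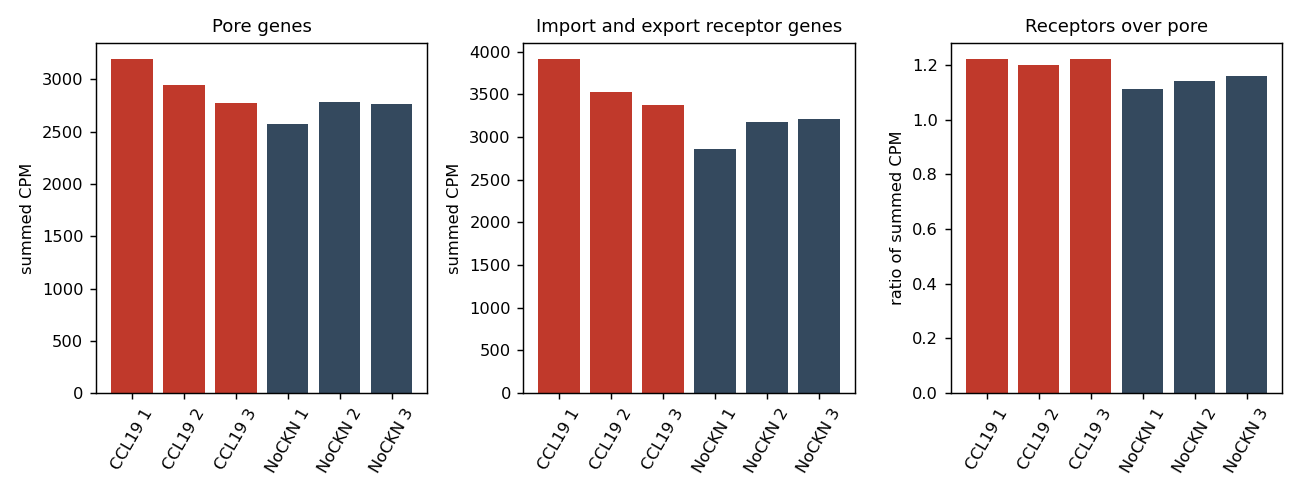
Summed CPM of the 20 tested pore genes, of the 19 tested receptor genes, and the ratio of receptors to pore, with a bar for each CCL19 library (red) and each NoCKN library (dark). The ratio is 1.20 to 1.22 with CCL19 and 1.11 to 1.16 without it, but overlaps when Nup153 and Nup210 are left out of the pore sum (not drawn), and the pore sums of the groups overlap.

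RNA levels of the members were also set side by side per length, as CPM per kb of annotated exons, ordered by the mean of all libraries. Kpnb1 was the most abundant member at 99.3 ± 6.45 CPM per kb with CCL19 and 80.6 ± 6.14 CPM per kb without it, followed by Ipo5 at 84.7 ± 12 CPM per kb with CCL19 and 63.6 ± 8.64 CPM per kb without it and Ipo4 at 76.2 ± 9.83 CPM per kb with CCL19 and 63.2 ± 7.88 CPM per kb without it (SD, n = 3 each). The SDs of Ipo5 and Ipo4 overlap in both groups, and those of Nup153, next in order, overlap with both. Nup153 had 72.4 ± 3.34 CPM per kb with CCL19 and 68.8 ± 1.73 CPM per kb without it, and Nup210 followed at 59.9 ± 3.95 CPM per kb with CCL19 and 60.5 ± 2.05 CPM per kb without it. The other tested pore genes lay between Nup188 at 39.4 ± 5.59 CPM per kb with CCL19 and 35.2 ± 2.94 CPM per kb without it and Nup210l at 0.902 CPM per kb averaged over all libraries, with Nup62 at 37.1 ± 3.42 CPM per kb with CCL19 and 32.5 ± 2.93 CPM per kb without it, close to Nup188. By the mean of all libraries, the importin alpha genes ran from Kpna1 at 14.6 ± 1.64 CPM per kb with CCL19 and 12.5 ± 0.989 CPM per kb without it to Kpna6 at 18.9 ± 1.19 CPM per kb with CCL19 and 17.4 ± 0.762 CPM per kb without it, and Kpna6, Kpna4 and Kpna3 did not differ in order beyond their spread, Kpna3 being the highest of them with CCL19 at 19.7 ± 1.92 CPM per kb. Exportins ran from Xpot at 30.9 ± 3.96 CPM per kb with CCL19 and 26 ± 2.65 CPM per kb without it down to Xpo4 at 5.79 ± 0.454 CPM per kb with CCL19 and 4.85 ± 0.320 CPM per kb without it. The order depends on the length used: per kb of coding sequence, Xpo6 stood at 117 and Xpot at 59.4 CPM per kb averaged over all libraries, and the importin alpha genes ran from Kpna2 at 29.1 to Kpna6 at 76.1 and Kpna4 at 86.3 CPM per kb. Nup153 and Nup210 stood at 113 and 111 CPM per coding kb, but per kb of the longest transcript Nup210 was the higher at 89.6, against 81.1 CPM per kb for Nup153, while Kpnb1 stayed first at 226 CPM per coding kb.

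**Figure D4:**
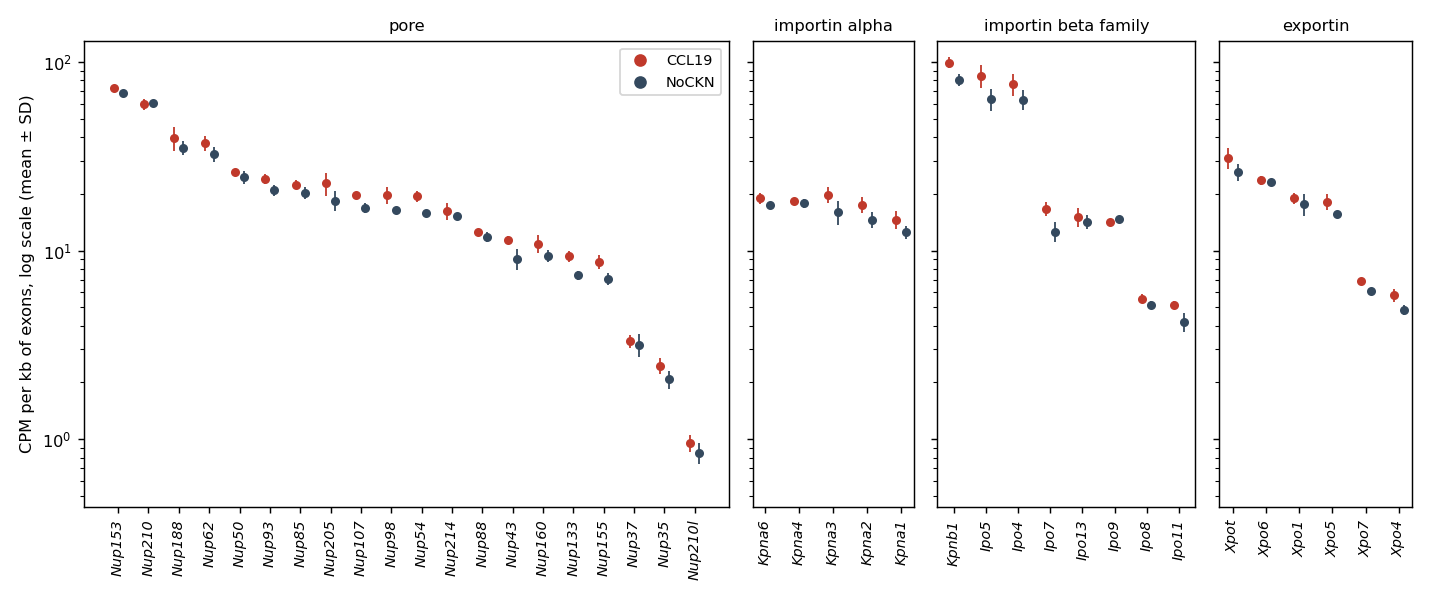
Level of each tested member as CPM per kb of exons (log axis), mean ± SD of 3 libraries, CCL19 in red and NoCKN in dark, ordered within each class. Kpnb1, Ipo5, Ipo4, Nup153 and Nup210 stand highest, and Nup210l lowest.

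Fold changes ran with base composition over all genes, and the members lie on the side that ran higher. Spearman's rho between the GC content of the longest transcript and the log2 fold change was -0.312 over 11602 tested genes and -0.229 over the 39 members, whose points share the same 6 libraries. The median GC content was 46.0% for members and 49.7% for all genes tested, and the median exon length 6859 and 4413 bp. Tested genes were split by GC content into 10 classes of like size, and 34 of 39 members had a log2 fold change above the median of their class. The exceptions were Ipo9, Kpna4, Nup37, Xpo1 and Xpo6. With a per-library GC and length offset, 35 of 39 members were above 0 with a median of 0.19, against a median of 0.01 for all genes, and DESeq2 called 7 members, Ipo4, Ipo5, Ipo7, Kpnb1, Nup62, Nup98 and Nup133, of which 5 were among its 8 calls without the offset. With this offset it called 5.33% of all genes higher and 2.73% lower.

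**Figure D5:**
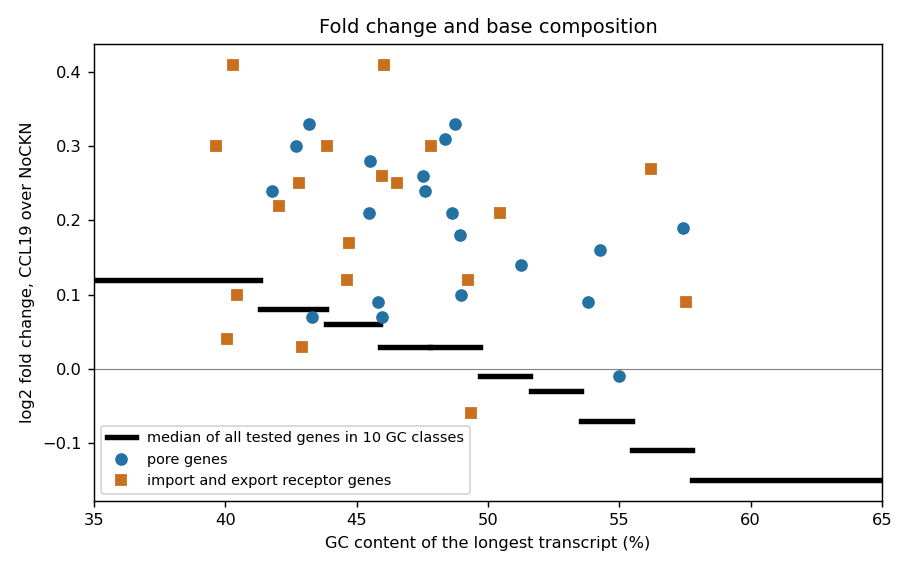
Log2 fold change against the GC content of the longest transcript for pore genes (circles) and receptor genes (squares), with black bars for the median of all tested genes in each of 10 GC classes. The bars run from 0.12 at low GC to -0.15 at high GC, and 34 of 39 members lie above their bar.

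Genes of the same machinery outside the symbol rule also stood mostly above 0. Of 12 further pore genes, 11 were above 0 (91.7%, median 0.16), against 49.8% of all genes tested. DESeq2 called 2 higher (16.7%, against 5.55% of all genes) and none lower, and edgeR called none. Nupl1, the third protein of the central channel beside Nup54 and Nup62, had 72.3, 69.1 and 65.6 CPM in the CCL19 libraries, against 56.5, 56.5 and 59.6 CPM in the NoCKN libraries, with no overlap (log2 fold change 0.26 ± 0.07 (SE), edgeR adjusted p = 0.0606, DESeq2 adjusted p = 0.0346). Ahctf1, also called ELYS, which seats new pores on chromatin, had 334, 302 and 290.5 CPM in the CCL19 libraries, against 242, 255 and 278 CPM in the NoCKN libraries, with no overlap (log2 fold change 0.25 ± 0.08 (SE), edgeR adjusted p = 0.0809, DESeq2 adjusted p = 0.0388). The others included the basket protein Tpr (0.12 on the log2 scale) and the cytoplasmic filament protein Ranbp2 (0.23). Of 7 genes of the Ran cycle, 6 were above 0 (85.7%, median 0.25). DESeq2 called 2 higher (28.6%, against 5.55% of all genes) and edgeR none. Rcc1, the exchange factor that loads Ran with GTP in the nucleus, had 166, 148 and 135 CPM in the CCL19 libraries, against 105, 137 and 119 CPM in the NoCKN libraries. NoCKN replicate 2 lay above CCL19 replicate 3 (log2 fold change 0.32 ± 0.10 (SE), edgeR adjusted p = 0.0754, DESeq2 adjusted p = 0.0388), and the exons of Rcc1 overlap those of the host gene Snhg3 on the same strand. Ranbp1, which helps to release Ran from receptors in the cytoplasm, had 185, 188 and 168 CPM in the CCL19 libraries, against 133, 159.6 and 155 CPM in the NoCKN libraries, with no overlap (log2 fold change 0.27 ± 0.08 (SE), edgeR adjusted p = 0.0705, DESeq2 adjusted p = 0.0363). Ran itself had 302, 286 and 264 CPM in the CCL19 libraries, against 222, 269.8 and 252 CPM in the NoCKN libraries. Its groups overlapped (log2 fold change 0.20 ± 0.09 (SE), edgeR adjusted p = 0.167, DESeq2 adjusted p = 0.137).

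The cells carried the markers of naive CD4+ T cells, whose 10 genes summed to 4653 to 5474 CPM in the CCL19 libraries, against 5367 to 6234 CPM in the NoCKN libraries. DESeq2 called 3 of the 10 lower (Ccr7, Lef1 and Tcf7), against 5.03% of all genes, and none higher. Sums for other cell types were low and overlapped. They were, in the CCL19 libraries against the NoCKN libraries, 32.5 to 37.6 against 35.7 to 42.4 CPM for 8 B cell genes, 13.8 to 19.8 against 13.7 to 21.0 CPM for 8 myeloid genes, 11.5 to 13.5 against 10.5 to 13.1 CPM for 5 natural killer genes, 2.18 to 3.61 against 2.66 to 4.02 CPM for 5 dendritic cell genes and 15.6 to 16.8 against 11.8 to 18.5 CPM for 6 erythroid genes. Both CD8 genes together reached 17.2 CPM at most, in CCL19 replicate 3. No marker was at 0 in all libraries. The regulatory T cell list summed to 376 to 476 CPM with CCL19, against 256 to 330 CPM without it. Its most abundant gene is Il2ra, which activated T cells also make, at 388 ± 52.6 CPM in CCL19 and 265 ± 42 CPM in NoCKN libraries. DESeq2 called Il2ra higher (DESeq2 adjusted p = 0.0019), as it did 5.55% of all genes. The defining gene of the list, Foxp3, stood at 10.5 ± 0.520 CPM in CCL19 and 10.4 ± 0.415 CPM in NoCKN libraries. The part of these levels in the members' differences was not tested. Library totals lay between 16978736 and 27429898 counts. Some members share sequence with annotated copies, and the handling of reads that match several places is not stated in the sources at hand. Kpna2 has a copy of 99.9% identity over 1968 bases, Nup54 a processed pseudogene of 98% over 1254 bases and Ipo5 one of 91.3% over 3282 bases. Xpot has a processed pseudogene of 95.6% over 2918 bases, Nup50 one of 92.8% over 1031 bases, Xpo4 one of 99.1% over 576 bases and Nup35 a protein-coding copy of 99.3% over 747 bases. Ipo4 shares 2583 of its 4669 exon bases with Gm49378 on its own strand, and Kpnb1 and Nup133 share 466 and 461 bases with antisense genes, so the counts of all these members are uncertain.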

How the data were processed

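The 6 libraries were prepared from total RNA (Illumina TruSeq RNA), per the labels' protocols. Reads were aligned to mm10. STAR 2.5, featureCounts 1.5.0-p1 of Subread and DESeq2 1.28.1 were among the tools, per the submitters' processing notes. The deposited table holds raw counts per gene. The sources at hand state neither strand setting nor annotation release, so reads of a gene and of an antisense neighbour cannot be told apart. A second deposited table gives the direction of changed genes in words, with no value and no threshold.

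Groups and replicate numbers came from the titles. CCL19 was compared with NoCKN over the 11666 genes that passed filterByExpr, in R 4.3.3. The tool was edgeR 4.0.16, with TMM factors, the quasi-likelihood F test and Benjamini-Hochberg adjustment (threshold 0.05). DESeq2 1.42.0 on the same genes and limma 3.58.1 (voom) were alternatives, as were other size factors, other filters, a robust prior, a replicate block, each library left out, and a per-library offset for GC content and exon length (natural splines of 5 degrees of freedom; values for 99.5% of genes tested, from GENCODE M21 on the same assembly). CPM values are scaled by TMM, and log2 CPM used a prior count of 2. Tests were run on simulated counts with changes of known size. The simulation held neither the GC trend nor the differences between replicates described above, so it does not show how the tests behave under them. Copies of members were searched with minimap2 2.31-r1302 among GENCODE transcripts.

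The members and lists were chosen with earlier results of these data known, so no test was made over the members. Values in each library are given for members called by either tool, the member of highest level per length in each class, untested members with counts, members of opposite sign to their class by at least 0.1 on the log2 scale (none was found), and genes of the added lists called by either tool, at most 5 a list, with Ran. Xpo1, Ipo9, Nup210 and the uncalled genes named from the lists were added after their values were seen, as were the groups of pore genes by subcomplex. Protein sequences were not used here.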

Additional observations from a re-analysis of the deposited data

How the results depend on the processing

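Calls of members by edgeR went to 12 higher with no filter on low counts and to 3 with a robust prior, and DESeq2 called 8; with each library left out in turn edgeR called between 0 and 11 higher, and 0 lower in each case. Over all genes edgeR called 803 higher and 797 lower with no filter, 267 and 262 with a robust prior, and DESeq2 648 and 587; with each library left out edgeR called 0 to 772 higher and 0 to 827 lower. DESeq2 called 0 members, and 65 genes higher and 51 lower, with a replicate block, and 618 genes higher and 317 lower with the GC and length offset. With each library left out it called 0 to 16 members higher, 10 to 946 genes higher and 29 to 852 lower. The pore minus receptor median lay between -0.05 and 0.01 with each library left out. The log2 ratio of summed receptor to pore CPM, CCL19 minus NoCKN, was 0.09, and 0.07 to 0.11 with each library left out, but 0.02 without Nup153 and Nup210 (both chosen after seeing the data). Of 39 tested members, 35 kept their direction under all 15 alternatives. The GC and length offset, with and without the block, gave -0.05 for Kpna4, -0.01 for Nup37, -0.02 for Xpo6 and 0.07 for Nup210. With each library left out, Kpna4 lay between -0.01 and 0.07, Nup37 between -0.05 and 0.12, Xpo6 between -0.01 and 0.06 and Nup210 between -0.06 and 0.03. The causes were not tested. Whether equal replicate numbers mark paired libraries could not be settled. Deviations of equal numbers correlated at -0.164, 0.0814 and -0.0207, and in 1 of 3 cases best with their own number. With 3 libraries a group, such correlations cannot exclude a pairing. By the chi-square over genes, both replicates 3 were the closest pair (5.19) and both replicates 1 the farthest (56.6). With the replicate block edgeR called 0 members higher and 0 lower, with a median of 0.20 over pore and 0.22 over receptor genes. Depth limits Kpna7 and Nup62cl, for which no difference was detectable.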

Other observations

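Carriers and export factors next to the members stood mostly above 0 as well. Of 7 tested transport receptors outside the symbol rule, 6 had a log2 fold change above 0 (median 0.22), and neither edgeR nor DESeq2 called any. At an unadjusted edgeR p under 0.05, 3 were higher (42.9%, against 14.5% of all genes). Cse1l, which returns importin alpha to the cytoplasm, averaged 135 ± 11.2 CPM in CCL19 and 112 ± 14.4 CPM in NoCKN libraries (SD, n = 3 each; log2 fold change 0.26, edgeR adjusted p = 0.0992), and its groups overlapped. Tnpo1, the importin of hnRNP proteins, had a log2 fold change of 0.24, and Tnpo3, the importin of SR splicing factors, 0.22, both with no overlap between the groups. Ranbp6 was below 0 (-0.11).

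Of 26 mRNA export factors tested, 22 were above 0 (median 0.13), DESeq2 called 2 higher (7.69%, against 5.55% of all genes) and none lower, and edgeR called none, with 11 higher at an unadjusted p under 0.05 (42.3%, against 14.5% of all genes). Ncbp1, the large subunit of the nuclear cap-binding complex, had 207, 184 and 187 CPM in the CCL19 libraries, against 157, 166 and 167 CPM in the NoCKN libraries. The groups did not overlap (log2 fold change 0.24 ± 0.07 (SE), edgeR adjusted p = 0.0726, DESeq2 adjusted p = 0.041). Thoc1, a subunit of the THO complex that couples transcription to export, had 88.8, 77.8 and 85.7 CPM in the CCL19 libraries, against 66, 63 and 77 CPM in the NoCKN libraries (log2 fold change 0.29 ± 0.09 (SE), edgeR adjusted p = 0.0674, DESeq2 adjusted p = 0.0377). Usp14 on the opposite strand overlaps 2169 bp of its exons, which makes its counts uncertain. The main export receptor of mRNA, Nxf1, averaged 605 ± 15 CPM in CCL19 and 625 ± 18.1 CPM in NoCKN libraries, with a log2 fold change of -0.05 (edgeR adjusted p = 0.720) and groups that overlapped. Mcm3ap, the scaffold of the TREX-2 complex, was the one export factor whose CCL19 libraries all lay below the NoCKN libraries (-0.13, edgeR adjusted p = 0.240).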
